A study of Mus musculus with 18 samples.

Results

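Crebbp and Ep300, the genes of the acetyltransferases CBP and p300, and 4 genes whose proteins or families are known for binding the TAZ1 domain of CBP and p300, Cited2, Cited4, Hif1a and Stat2, were followed in mouse fibroblasts treated with TNFα. The 6 genes were taken by name from the merged transcript assembly, which names 23212 genes. In cells that lacked RelA and had received it back, the RNA of Cited2 rose 2.63-fold to 3.30-fold at 1 h of TNFα in the 3 cell lines. At 2 h it was higher in both RelA mutant lines than in RelA(wt) cells, while at 1 h neither difference passed. Before TNFα, at 0 h, Cited2 RNA of the RelA(TA2) line already exceeded that of RelA(wt) (log2 0.34, adjusted p = 0.0359 from limma). The RelA(TA2) difference at 2 h was log2 0.40. For RelA(Ser276Ala) the 0 h difference did not pass (log2 0.21, adjusted p = 0.223). The call at 0 h and both calls at 2 h were lost with only the compared groups fitted. No difference of a mutant from RelA(wt) in the Cited2 change from 0 h passed. The RNA of Stat2 was lower at 1 h when counted in fragments, a fall that missed the threshold in summed transcript levels. No difference of Hif1a passed on either scale, and no transcript of Cited4 was assembled. No difference of Crebbp or Ep300 passed in summed transcript levels, while some of both did in fragments, where far more genes passed.

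CBP and p300 are large co-activators that acetylate histones and other proteins and are brought to genes by transcription factors that bind their TAZ1, KIX and other small domains. TAZ1 is bound by the activation domains of RelA, HIF-1α and STAT2, and by CITED2, which displaces HIF-1α from it and so limits the hypoxia response. STAT2 carries signals of type I interferon to the nucleus, and CITED4 is a relative of CITED2 that also binds CBP and p300.

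The study asked how the contacts of RelA with CBP and p300 bear on gene expression, and 18 poly(A) RNA-seq libraries from its cells were used, 2 for each of 9 conditions. All cells were immortalized mouse embryonic fibroblasts without their own RelA gene (rela-/-), reconstituted by retrovirus with 1 of 3 forms of RelA. RelA(TA2) carries L449A and F473A in the activation domain that meets TAZ1, RelA(Ser276Ala) carries S276A in the Rel homology region that meets KIX, and RelA(wt) carries neither. Each line was sampled before TNFα (0 h) and after 1 h or 2 h in 5 ng/ml of it. Each line is 1 reconstituted population, so the mutation cannot be told apart from other differences between lines. The p-values from limma measure the spread between the 2 libraries of a condition only. The study's methods call the replicates independent, and the labels do not say whether they came from separate cultures. RNA, not protein, was measured. In bulk RNA, fewer cells of a kind and less RNA per cell cannot be told apart.

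Libraries held 25.3 M to 31.3 M mapped fragments. Levels are given as FPKM, the fragments of a transcript divided by its length in kilobases and by the mapped fragments of the library in M, summed over the transcripts assembled for a gene. Rela itself, which all 3 lines had received by retrovirus, stood at 315 to 366 FPKM in RelA(TA2) libraries. It stood at 174 to 211 FPKM in RelA(Ser276Ala) libraries, against 156 to 187 FPKM in RelA(wt) libraries. Whether all of this RNA came from the retrovirus was not tested. The RelA(TA2) level was 1.94-fold that of RelA(wt) (log2 0.95, SE 0.06, adjusted p = 4.63e-06 from limma). Rela RNA was not lower in RelA(Ser276Ala) than in RelA(wt) (log2 0.10, SE 0.06, adjusted p = 0.332 from limma). The paper, however, reports less RelA protein in RelA(Ser276Ala) cells than in RelA(wt) cells. The part of these RNA and protein differences in the results below was not tested. The 8 fibroblast markers summed to 3485 to 4802 FPKM per library, and some differed between lines, as Fn1, fibronectin, at 636 FPKM in RelA(TA2) and 287 FPKM in RelA(wt) (adjusted p = 1.46e-06). The collagen genes Col1a2 and Col1a1 were at 821 and 255 FPKM in RelA(TA2), against 543 and 169 FPKM in RelA(Ser276Ala) (log2 0.60 for each, adjusted p = 4.49e-05 and 1.48e-04). The 6 macrophage markers summed to 11.2 to 38.5 FPKM with Ptprc and Emr1 at 0 in every library, and of these Cd14, a co-receptor for lipopolysaccharide, was at 5.77 FPKM in RelA(TA2) and 8.22 FPKM in RelA(wt) (log2 -0.47, adjusted p = 0.0165). The 4 endothelium markers summed to 1.12 to 14.1 FPKM with Pecam1 and Tek at 0, and the 4 epithelium markers to 1.85 to 26.0 FPKM with Epcam, Cdh1 and Krt18 at 0.

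The promoters of Cited2 and Stat2 are shown because these were the members whose RNA moved most with TNFα, that of Stat2 in fragments. Each runs from 250 bases before to 50 bases after the gene's start in RefSeq's promoter table, on GRCm38.p6 (mm10), and is printed 5′ to 3′ on the gene's strand. For Stat2 this start lies 78 bases upstream of the RefSeq start in the merged assembly, while for the other members the starts are identical. That of Cited2 lies at chr10:17722978-17723277 on the plus strand, with capitals at the core of the hypoxia response element. That of Stat2 lies at chr10:128270248-128270547 on the plus strand, with capitals at the core of the interferon-stimulated response element.
Cited2: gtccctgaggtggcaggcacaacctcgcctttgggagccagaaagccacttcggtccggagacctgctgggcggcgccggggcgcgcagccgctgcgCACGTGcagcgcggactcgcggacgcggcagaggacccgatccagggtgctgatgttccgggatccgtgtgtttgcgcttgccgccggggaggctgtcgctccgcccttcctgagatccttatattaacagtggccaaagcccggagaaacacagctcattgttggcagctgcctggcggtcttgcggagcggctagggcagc
Stat2: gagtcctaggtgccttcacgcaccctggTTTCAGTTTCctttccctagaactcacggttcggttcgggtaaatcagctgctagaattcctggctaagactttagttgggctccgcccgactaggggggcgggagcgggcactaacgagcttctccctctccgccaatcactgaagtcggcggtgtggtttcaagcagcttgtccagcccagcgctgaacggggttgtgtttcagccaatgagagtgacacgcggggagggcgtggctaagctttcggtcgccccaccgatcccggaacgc

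All 6 members matched the promoter table, and 5 motifs were searched on both strands. The hypoxia response element core ACGTG was found in the Cited2 window at positions -153 to -148 from the table's start, as 2 overlapping matches on opposite strands, and in the Hif1a window as 3 matches. Of 32851 promoters of the same length, 19.6% held it. GAAANNGAAA, the core of the interferon-stimulated response element, was found only in the Stat2 window among the 6, at positions -222 to -213 on the minus strand, and in 3.44% of all promoters. The cAMP response element TGACGTCA (1.79% of promoters), the κB motif (8.46%) and the CArG box (1.63%) were in none of the 6 windows. A match is a run of letters and not a measured binding site.

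Of the 6 members, 5 reached 1 FPKM in at least 2 libraries and were tested with 12220 genes in all. Cited4, a single-exon gene at chr4:120666563-120667820, was listed at 0 in all 18 libraries. Cited2 was the most abundant member in every library with 68.1 to 255 FPKM, followed by Hif1a with 38.7 to 49.6 FPKM. The ranges of the others overlapped: Ep300 10.2 to 25.1 FPKM, Stat2 6.05 to 30.6 FPKM and Crebbp 5.31 to 13.7 FPKM.

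**Figure D1:**
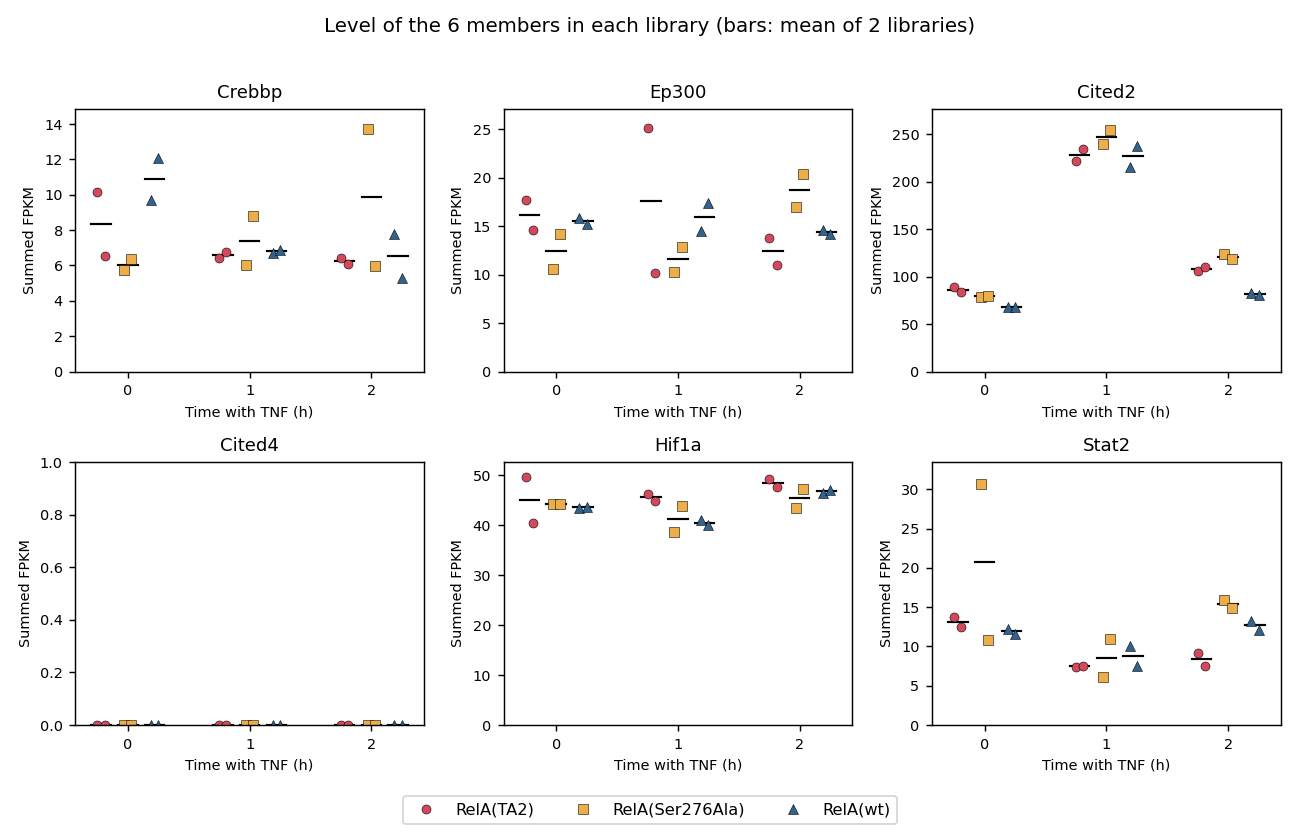
Summed FPKM (y axis, from 0) of each member in each library against hours of TNFα (x axis), with circles for RelA(TA2), squares for RelA(Ser276Ala), triangles for RelA(wt) and a bar at the mean of 2 libraries. Cited2 was at 216 FPKM or more in all 6 libraries at 1 h and at 124 FPKM or less at 0 h and 2 h, Cited4 was at 0 throughout, and single libraries of Crebbp, Ep300 and Stat2 stood well above their partner.

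The assemblies split the last 3 genes into a number of pieces that varied between libraries. Cited2 was assembled as 1 transcript and Hif1a as 2 in every library, whereas Crebbp had 1 to 4, Ep300 1 to 3 and Stat2 1 to 6. Ep300 had a piece of under 2000 bases in 13 libraries, and such pieces carried as few as 10 fragments but added up to 14.1 FPKM, since FPKM divides by length. The fragments behind each transcript were therefore also recovered from the FPKM and its confidence limits and given per M fragments in genes, a measure in which a piece weighs by its fragments and not by its length. Between replicate libraries, the SD on the log2 scale had a median over all genes of 0.34 in FPKM and 0.10 in fragments. For Stat2 these were 0.41 and 0.10, for Crebbp 0.36 and 0.07, for Ep300 0.35 and 0.09, and for Cited2 0.05 and 0.08.

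Cited2 encodes the small nuclear protein that competes with HIF-1α for TAZ1. In RelA(TA2) cells its level was 89.2 and 83.5 FPKM at 0 h, 221 and 234 FPKM at 1 h, and 106 and 110.4 FPKM at 2 h. In RelA(Ser276Ala) cells it was 78.9 and 79.7 FPKM at 0 h, 240.4 and 255 FPKM at 1 h, and 124 and 119 FPKM at 2 h. In RelA(wt) cells it was 68.4 and 68.1 FPKM at 0 h, 216 and 238 FPKM at 1 h, and 82.7 and 81.1 FPKM at 2 h. The 1 h libraries of every line lay above all libraries of the other times, and the 2 h libraries lay above the 0 h libraries of their own line.

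Over the 3 lines, the Cited2 level was 3.0-fold higher at 1 h than at 0 h (log2 1.58, SE 0.04, adjusted p = 3.91e-09 from limma) and 1.32-fold higher at 2 h than at 0 h (log2 0.40, SE 0.04, adjusted p = 2.47e-04). It was the 1 member of 5 that passed at 1 h, where 3.85% of all genes passed, and the 1 that passed at 2 h, where 7.22% did. By line, the log2 change at 1 h was 1.39 in RelA(TA2) (adjusted p = 2.37e-06), 1.64 in RelA(Ser276Ala) (adjusted p = 1.70e-06) and 1.72 in RelA(wt) (adjusted p = 2.21e-07), each with SE 0.07 from limma. At 2 h it was 0.32 in RelA(TA2) (adjusted p = 0.0397), 0.61 in RelA(Ser276Ala) (adjusted p = 0.00311) and 0.26 in RelA(wt) (adjusted p = 0.138). In fragments the RelA(wt) change at 2 h passed as well (log2 0.38, SE 0.08, adjusted p = 0.00795), though not without RelA(wt) 0 h replicate 1 (adjusted p = 0.0667) or RelA(wt) 2 h replicate 2 (0.0789).

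These were the 5 member calls among 30 tests of 1 h and 2 h against 0 h within a line, all of them Cited2 and all higher, where 1.72% of such tests passed over all genes. The call in RelA(TA2) at 2 h was lost without any 1 of 11 libraries (adjusted p 0.0525 to 0.176): the 4 of RelA(wt) at 0 h and 2 h, the 2 of RelA(Ser276Ala) at 0 h, and those of RelA(TA2) other than 0 h replicate 1. It was also lost with only the compared groups fitted (adjusted p = 0.334), after quantile normalization (0.149), without a variance trend (0.0872) and with a replicate block (0.0512). The call in RelA(Ser276Ala) at 2 h was lost with only the compared groups fitted (adjusted p = 0.12).

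On average over 0 h, 1 h and 2 h, the mutant lines held more Cited2 RNA than RelA(wt) cells. Over the 3 times, the level was 1.19-fold higher in RelA(TA2) than in RelA(wt) (log2 0.25, SE 0.04, adjusted p = 0.00389 from limma), and 1.23-fold higher in RelA(Ser276Ala) than in RelA(wt) (log2 0.30, SE 0.04, adjusted p = 0.00110). Cited2 was the 1 member that passed in each, and 10.3% and 11.4% of all genes passed. Between RelA(TA2) and RelA(Ser276Ala) no member passed in FPKM (11% of all genes did, and no member was under an unadjusted p of 0.05), and Cited2 differed by log2 -0.05 (SE 0.04, adjusted p = 0.482).

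At single times the difference from RelA(wt) passed at 2 h for both mutants and at 0 h for RelA(TA2), and at 1 h for neither. At 2 h, Cited2 averaged 108 ± 3.42 FPKM in RelA(TA2) and 121 ± 3.69 FPKM in RelA(Ser276Ala), against 81.9 ± 1.15 FPKM in RelA(wt) (SD, n = 2 each). These are log2 differences of 0.40 (adjusted p = 0.0173) and 0.56 (adjusted p = 0.00258), each with SE 0.07 from limma, and in both cases the libraries did not overlap. At 0 h the log2 differences were 0.34 for RelA(TA2) (adjusted p = 0.0359) and 0.21 for RelA(Ser276Ala) (adjusted p = 0.223). At 1 h they were 0.01 (adjusted p = 1) and 0.13 (adjusted p = 0.455). In fragments the libraries of both mutants at 1 h lay below those of RelA(wt). The log2 difference there was -0.07 for each (adjusted p = 0.551 and 0.583 from limma).

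The 3 calls at single times were the only member calls among 30 tests in FPKM, all Cited2 and all higher, against 2.6% of such tests over all genes. Without RelA(wt) 2 h replicate 1 the RelA(TA2) difference at 2 h had adjusted p = 0.0574, without RelA(wt) 2 h replicate 2 adjusted p = 0.0785 and without RelA(TA2) 2 h replicate 2 adjusted p = 0.0823. The call at 0 h was lost without any 1 of 7 libraries (adjusted p 0.0504 to 0.121): the 4 of RelA(wt) at 0 h and 2 h, the 2 of RelA(Ser276Ala) at 0 h, and RelA(TA2) 0 h replicate 1. The difference of RelA(Ser276Ala) at 2 h passed with any library left out, and was lost with only the compared groups fitted (adjusted p = 0.0941). With only these groups fitted, the RelA(TA2) calls were lost as well, at 2 h (adjusted p = 0.111) and at 0 h (0.282). Quantile normalization also removed them (0.0841 at 2 h and 0.077 at 0 h). The RelA(TA2) call at 0 h was lost too after median-of-ratios scaling (0.0745) and without a variance trend (0.0823).

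Whether the mutants differed from RelA(wt) in the change from 0 h was tested directly. The change of Cited2 to 1 h was smaller in RelA(TA2) than in RelA(wt) (difference log2 -0.33, SE 0.10, adjusted p = 0.364 from limma), and the change to 2 h was larger in RelA(Ser276Ala) than in RelA(wt) by 0.35 (SE 0.10, adjusted p = 0.50). Of 20 such member tests 0 passed in limma in FPKM, where 0.211% of tests over all genes passed and 3 of the 20 had an unadjusted p under 0.05. In fragments 0 of 20 passed as well, where 0.71% did over all genes and 5 of the 20 had an unadjusted p under 0.05.

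The Cited2 transcript itself, at chr10 on the plus strand, was assembled with different 5′ ends. At 0 h it began between 83 bases before and 8 bases after the RefSeq start in all 6 libraries. At 1 h, 5 of 6 libraries had a start 214 to 799 bases upstream, and in 3 of these, both RelA(TA2) libraries and RelA(Ser276Ala) replicate 1, the transcript had 3 exons rather than 2. At 2 h the start lay 59 to 331 bases upstream in 5 of 6 libraries. An assembled start is where read coverage begins and not a measured start of transcription. Cited2 also had more fragments at 1 h than at 0 h (means of 606 and 187 per M over the lines). Whether the assembled starts moved with the number of fragments was not tested.

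Stat2 encodes the signal transducer whose activation domain binds TAZ1. In RelA(TA2) cells its fragments per M were 64.3 and 59.2 at 0 h, 33.1 and 34.5 at 1 h, and 38.7 and 35.9 at 2 h. In RelA(Ser276Ala) cells they were 46.1 and 47.1 at 0 h, 28.4 and 24.3 at 1 h, and 30.05 and 35.1 at 2 h. In RelA(wt) cells they were 54.5 and 55.8 at 0 h, 30.6 and 34.9 at 1 h, and 58.1 and 52.1 at 2 h. The 1 h libraries lay below the 0 h libraries in each line, while at 2 h the mutant libraries were still below their 0 h level and the RelA(wt) libraries lay around theirs.

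**Figure D2:**
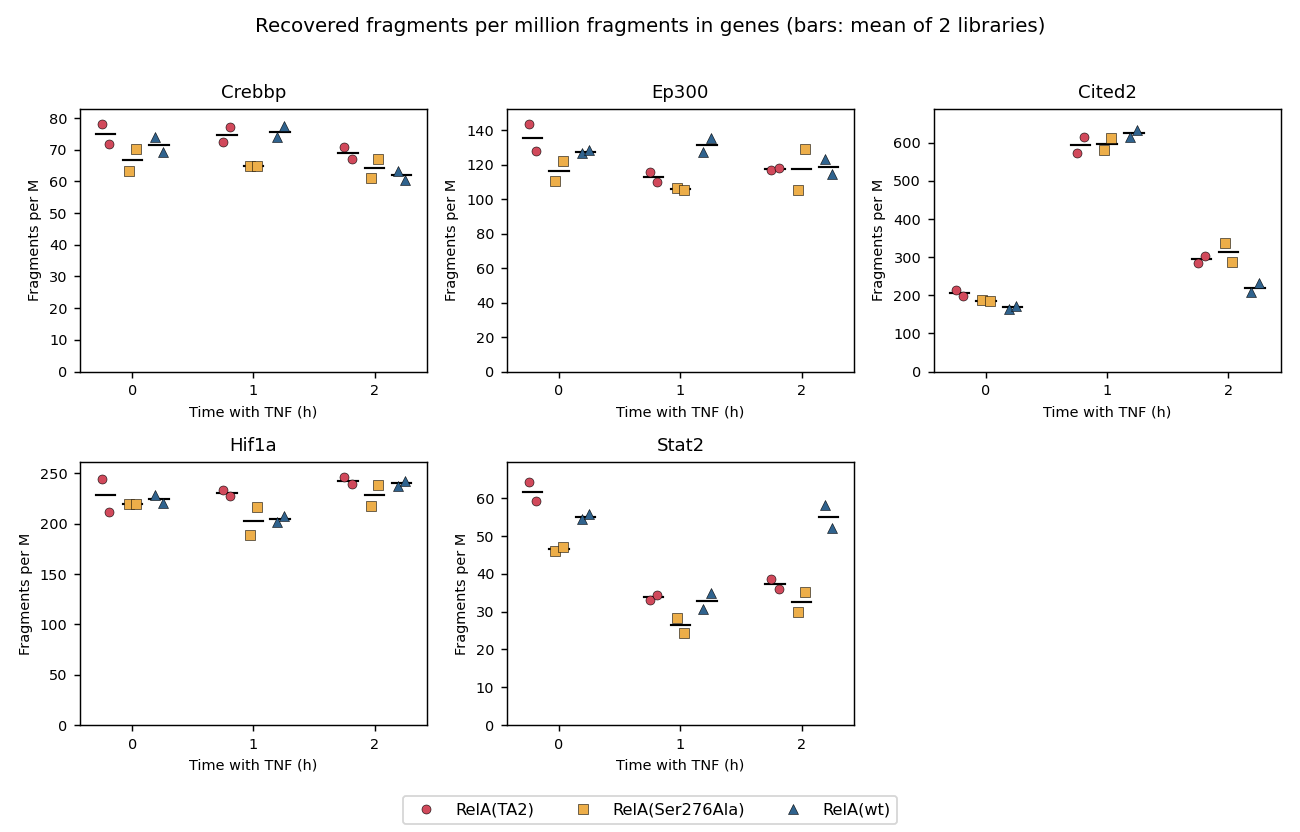
Recovered fragments per M fragments in genes (y axis, from 0) for the 5 members with transcripts, against hours of TNFα, with the same symbols. Stat2 was at 24.3 to 34.9 at 1 h in all 3 lines, and at 2 h the 4 mutant libraries were at 30.05 to 38.7 against 52.1 and 58.1 in RelA(wt).

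In fragments, Stat2 was 0.57-fold its 0 h value at 1 h over the 3 lines (log2 -0.81, SE 0.06, adjusted p = 1.26e-06 from limma) and 0.75-fold at 2 h (log2 -0.41, SE 0.06, adjusted p = 1.71e-04). Within lines the log2 change at 1 h was -0.86 in RelA(TA2), -0.81 in RelA(Ser276Ala) and -0.75 in RelA(wt), with adjusted p of 1.84e-04, 3.26e-04 and 5.24e-04. At 2 h it was -0.72 in RelA(TA2) (adjusted p = 3.49e-04), -0.51 in RelA(Ser276Ala) (adjusted p = 0.00691) and -0.002 in RelA(wt) (adjusted p = 1). The fall in RelA(Ser276Ala) at 2 h was lost without RelA(Ser276Ala) 0 h replicate 2 (adjusted p = 0.0625) and without RelA(Ser276Ala) 2 h replicate 1 (adjusted p = 0.059).

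Against RelA(wt) at 2 h, Stat2 fragments were lower in RelA(TA2) (log2 -0.56, adjusted p = 0.00213) and in RelA(Ser276Ala) (log2 -0.75, adjusted p = 3.07e-04), each with SE 0.10 from limma. The difference of RelA(TA2) from RelA(wt) in the change to 2 h was -0.72 (SE 0.14, adjusted p = 0.0584), and that of RelA(Ser276Ala) was -0.51 (SE 0.14, adjusted p = 0.264). That of RelA(TA2) passed without RelA(TA2) 0 h replicate 1 (adjusted p = 0.0204) and without any 1 of the 4 RelA(Ser276Ala) libraries of 1 h and 2 h (0.0438 to 0.0474). At 1 h RelA(Ser276Ala) differed from RelA(wt) by -0.31 (adjusted p = 0.0409), a call lost without any 1 of 9 libraries (adjusted p 0.05 to 0.268): the RelA(Ser276Ala) and RelA(wt) libraries of 0 h, RelA(Ser276Ala) 1 h replicate 2, RelA(wt) 1 h replicate 2, both RelA(TA2) libraries of 1 h, and RelA(TA2) 2 h replicate 2. Over the 3 times, Stat2 was lower in RelA(Ser276Ala) than in RelA(wt) (log2 -0.43, SE 0.06, adjusted p = 8.53e-05), RelA(TA2) differed from RelA(wt) by -0.12 (SE 0.06, adjusted p = 0.118), and RelA(TA2) was above RelA(Ser276Ala) (log2 0.32, SE 0.06, adjusted p = 7.87e-04).

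None of these differences passed in summed FPKM with all libraries fitted. There, Stat2 stood at 13.8 and 12.5 FPKM at 0 h, 7.42 and 7.49 FPKM at 1 h, and 9.20 and 7.55 FPKM at 2 h in RelA(TA2) cells. It stood at 30.6 and 10.9 FPKM, 6.05 and 10.9 FPKM, and 15.9 and 14.9 FPKM at the same times in RelA(Ser276Ala) cells, and at 12.2 and 11.6 FPKM, 10.1 and 7.56 FPKM, and 13.3 and 12.1 FPKM in RelA(wt) cells. The library at 30.6 FPKM, RelA(Ser276Ala) 0 h replicate 1, was assembled in 4 pieces, and its fragments were within 1 per M of its partner's. The FPKM change was log2 -0.78 at 1 h (SE 0.22, adjusted p = 0.107) and -0.26 at 2 h (SE 0.22, adjusted p = 0.561), and the difference of RelA(Ser276Ala) from RelA(wt) over the times was 0.26 (SE 0.22, adjusted p = 0.532), of the opposite sign to that in fragments. RelA(TA2) differed from RelA(Ser276Ala) by -0.48 (SE 0.22, adjusted p = 0.223), again opposite to the fragments.

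The FPKM differences of Stat2 moved with single libraries. Without RelA(Ser276Ala) 0 h replicate 2, the partner of the library at 30.6 FPKM, the change at 1 h was -1.02 (adjusted p = 0.00355) and RelA(TA2) against RelA(Ser276Ala) was -0.72 (adjusted p = 0.0136), both past the threshold. Without RelA(Ser276Ala) 0 h replicate 1 they were -0.53 (adjusted p = 0.216) and -0.24 (adjusted p = 0.425). Leaving out replicate 2 or replicate 1 of this condition gave -0.50 or -0.02 for the change at 2 h, and 0.50 or 0.017 for RelA(Ser276Ala) against RelA(wt), with no call in these.

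**Figure D3:**
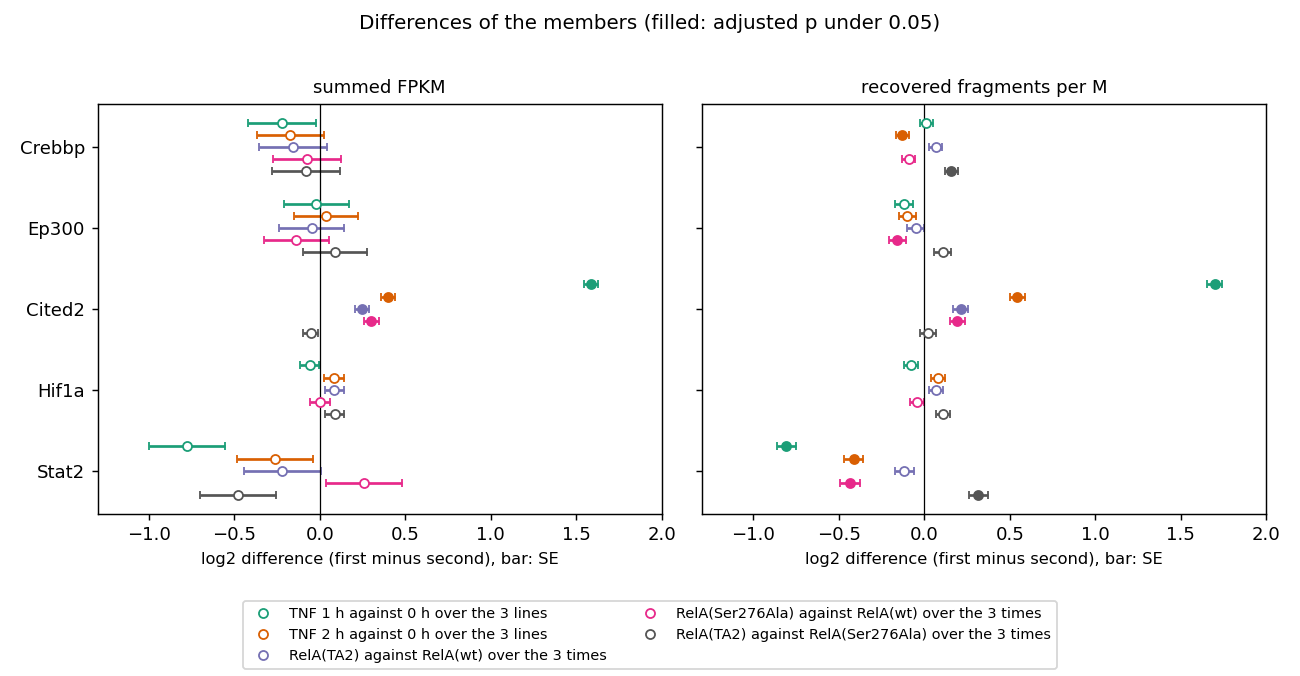
Differences of the 5 tested members on the log2 scale (x axis, first group minus second, bars are SE from limma) in summed FPKM (left) and recovered fragments (right), filled where the adjusted p was under 0.05. Cited2 passed in the same 4 of 5 comparisons on both scales, while Stat2 passed in none in FPKM with all libraries fitted and in 4 in fragments.

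Far more genes passed in fragments, and the members have to be read against that. The members that passed in fragments were 2 of 5 at 1 h against 0 h, where 17.3% of all genes passed, and 3 of 5 at 2 h against 0 h, where 39% did. For RelA(TA2) against RelA(wt) it was 1 of 5 (42.3% of all genes), for RelA(Ser276Ala) against RelA(wt) 3 of 5 (45.3%) and for RelA(TA2) against RelA(Ser276Ala) 2 of 5 (44.8%). Within lines 11 of 30 tests passed (13.1% over all genes), 6 of Cited2, all higher, and 5 of Stat2, all lower. Between each mutant and RelA(wt) at single times 8 of 30 passed (22.4% over all genes), 3 of Cited2, all higher, 3 of Stat2, all lower, and 1 each of Crebbp and Ep300, both lower.

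Crebbp encodes CBP and lies at chr16:4081336-4213415 on the minus strand. By fragments, it stood at 67.2 to 78.1 per M in RelA(TA2) libraries and 61.1 to 70.2 in RelA(Ser276Ala) libraries, against 60.5 to 77.5 in RelA(wt) libraries. These ranges, taken over the 3 times of a line, overlapped. In FPKM its differences over lines or times lay between log2 -0.22 and -0.08 (SE 0.20 each), and the smallest adjusted p was 0.675 from limma. In fragments it was lower at 2 h than at 0 h (log2 -0.13, SE 0.04, adjusted p = 0.0239) and above its RelA(Ser276Ala) value in RelA(TA2) by 0.16 (SE 0.04, adjusted p = 0.00669), while its change at 1 h was 0.01 (SE 0.04, adjusted p = 0.893). The difference at 2 h was lost without any 1 of 6 libraries, with adjusted p between 0.0517 and 0.0738: RelA(wt) 0 h replicate 1 and 2 h replicate 2, RelA(TA2) 0 h replicate 1 and 2 h replicate 2, and RelA(Ser276Ala) 0 h replicate 2 and 2 h replicate 1. At 1 h the libraries did not overlap between RelA(Ser276Ala), with 64.8 and 64.9 fragments per M, and RelA(wt), with 73.9 and 77.5 (log2 -0.22, SE 0.07, adjusted p = 0.0376). That call was lost without any 1 of these 4 libraries (adjusted p 0.0773 to 0.202).

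Ep300 encodes p300 and lies at chr15:81585186-81652096 on the plus strand. Its fragments were 110.004 to 143 per M in RelA(TA2) libraries and 105 to 129 in RelA(Ser276Ala) libraries, against 115 to 135 in RelA(wt) libraries. In FPKM no difference passed, and the values over lines or times lay between log2 -0.14 and 0.09 (SE 0.19 each, smallest adjusted p 0.724 from limma). In fragments Ep300 was lower in RelA(Ser276Ala) than in RelA(wt) (log2 -0.16, SE 0.05, adjusted p = 0.0244), and its change was -0.12 at 1 h and -0.10 at 2 h (SE 0.05 and adjusted p = 0.144 for each). The call was lost without any 1 of 5 libraries (adjusted p 0.053 to 0.0733): RelA(wt) 0 h replicate 2, 1 h replicate 2 and 2 h replicate 1, and RelA(Ser276Ala) 0 h replicate 1 and 2 h replicate 1. At 1 h Ep300 had 106 and 105 fragments per M in RelA(Ser276Ala), against 128 and 135 in RelA(wt) (log2 -0.31, SE 0.09, adjusted p = 0.0252), a call that was also lost without any 1 of these 4 libraries (adjusted p 0.0596 to 0.154).

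The highest Ep300 level in FPKM, 25.1 in RelA(TA2) 1 h replicate 1, held a short piece of 14.1 FPKM, while its fragments, 116 per M, were near the partner's 110.004. Weighted by transcript length over the gene's exons, Crebbp was at 5.21 to 7.09 FPKM and Ep300 at 9.90 to 13.6 FPKM in the 18 libraries. Ep300 was above Crebbp in each of them, by 1.48-fold to 2.04-fold.

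Hif1a encodes the oxygen-regulated subunit of HIF-1 and lies at chr12:73907867-73947813 on the plus strand. Its level was 40.4 to 49.6 FPKM in RelA(TA2) libraries and 38.7 to 47.3 FPKM in RelA(Ser276Ala) libraries, against 40.0 to 47.1 FPKM in RelA(wt) libraries. Differences in FPKM over lines or times lay between log2 -0.06 and 0.09 (SE 0.06 each), with a smallest adjusted p of 0.411 from limma, and none passed in fragments either, where the nearest was RelA(TA2) against RelA(Ser276Ala) at 0.11 (SE 0.04, adjusted p = 0.0504).

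In every library the 2 assembled Hif1a transcripts had the same ends and number of exons and differed by 42 bases in length. Where these bases lie was taken from the GENCODE M21 annotation and not from the exons of the assemblies. There, an exon that ends at chr12:73941852 has 2 starts 42 bases apart. The longer form would start this exon at chr12:73941688, and the shorter one 42 bases later. The stretch, chr12:73941688-73941729 on the plus strand, is coding and forms the first bases of exon 11 of a GENCODE M21 transcript, from which it was read (GRCm38). It is shown because by this annotation it separates the 2 forms, in capitals with 15 bases of the spliced transcript on either side.
Hif1a: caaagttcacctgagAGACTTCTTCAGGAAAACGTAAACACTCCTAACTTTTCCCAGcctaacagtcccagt

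The shorter form made up 22.8% to 38.7% of Hif1a FPKM in the 18 libraries. It averaged 29.0% ± 5.50 in RelA(TA2) and 31.4% ± 3.51 in RelA(Ser276Ala), against 28.5% ± 3.27 in RelA(wt) (SD, n = 6 libraries each). By time it averaged 27.4% ± 3.27 at 0 h, 29.6% ± 3.95 at 1 h and 31.9% ± 4.54 at 2 h (SD, n = 6 each). None of 5 comparisons passed a two-sided exact permutation test over the libraries (smallest p = 0.0801 for 2 h against 0 h, 0.400 adjusted over the 5, where 6 against 6 can reach 0.00216). The 6 libraries of a group came from different lines or times, and the test moved them freely between groups. It took no account of line when times were compared, or of time when lines were. The authors' assembler split the fragments between the forms, which by the annotation share all other exonic bases within a library.

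Cited2 and Hif1a, whose proteins compete for TAZ1, were compared within each library. The ratio of their FPKM was 1.56 to 2.07 at 0 h, 4.78 to 6.21 at 1 h and 1.72 to 2.85 at 2 h. The 6 libraries at 1 h stood above all others, while those of 0 h and 2 h overlapped. Over the sum of Crebbp and Ep300, Cited2 stood at 2.49 to 4.83 at 0 h, 7.02 to 14.7 at 1 h and 3.70 to 6.46 at 2 h. The lowest value at 1 h was that of RelA(TA2) replicate 1, the library with the short Ep300 piece of 14.1 FPKM, and its partner stood at 13.8. Pieces under 2000 bases were part of the sum in 13 libraries for Ep300 and in 5 for Crebbp, and lower the ratio there. These are ratios of RNA levels per length, and the amount of each protein was not measured.

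**Figure D4:**
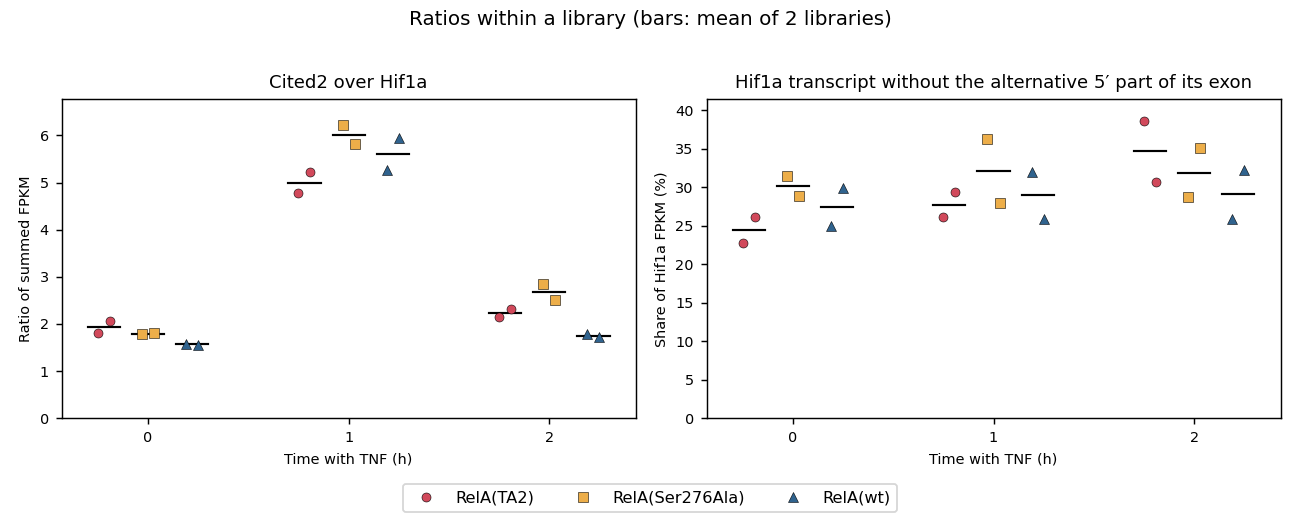
Left, the ratio of Cited2 to Hif1a FPKM in each library (y axis, from 0) against hours of TNFα; right, the shorter Hif1a form as a percent of Hif1a FPKM, with circles for RelA(TA2), squares for RelA(Ser276Ala), triangles for RelA(wt) and bars at the mean of 2 libraries. The ratio was 4.78 or higher in all 1 h libraries and 2.85 or lower in the others, and the share of the shorter form lay between 22.8% and 38.7% with overlap between lines and times.

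Of the other factors known to bind TAZ1, 5 were listed, Rela among them. Of these, 4 were tested, and in FPKM 1 rose at 1 h over the lines (1.89% of all genes did) and none at 2 h (3.14%). Ets1, an ETS-family activator, was at 13.4 FPKM on average at 1 h and 8.98 FPKM at 0 h (log2 0.53, SE 0.11, adjusted p = 0.0178 from limma). Cited1, a relative of Cited2, was lower in RelA(TA2) with 1.24 FPKM than in RelA(Ser276Ala) with 4.65 FPKM (log2 -1.88, SE 0.36, adjusted p = 0.00755). The list's median change at 1 h was 0.18, and that of all genes -0.03. In fragments 1 of the 4 was higher at 1 h (6.11% of all genes were), 1 at 2 h (12.3%), and 3 in RelA(Ser276Ala) than in RelA(wt) (24.3%).

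Around HIF-1, 7 of 9 listed pathway genes were tested. In FPKM 1 fell at 1 h (1.96% of all genes did) and 1 at 2 h (4.08%). Vhl, whose product marks HIF-1α for degradation, was at 6.18 FPKM at 1 h and 8.35 FPKM at 0 h (log2 -0.40, SE 0.06, adjusted p = 0.00278 from limma). Arnt, the partner subunit of HIF-1α, was at 12.9 FPKM at 2 h and 15.1 FPKM at 0 h (log2 -0.22, SE 0.05, adjusted p = 0.0248). The medians of the list were -0.13 at 1 h and -0.18 at 2 h, beside -0.03 and -0.05 for all genes. In fragments 3 of the 7 were lower at 1 h (11.2% of all genes were), and at 2 h 2 were higher and 4 lower (12.3% and 26.6% of all genes).

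Of 11 genes known as HIF targets, all tested, none passed at 1 h in FPKM, and at 2 h 1 rose and 1 fell (3.14% and 4.08% of all genes). The list's median change was -0.03 at 1 h and 0.09 at 2 h. Against RelA(wt), 2 were lower in RelA(TA2) and 2 higher in RelA(Ser276Ala), and 3 were lower in RelA(TA2) than in RelA(Ser276Ala), where 5.29%, 6.54% and 6.01% of all genes passed in these directions. In fragments 4 were higher and 3 lower at 2 h (12.3% and 26.6% of all genes). There, 4 were lower and 1 higher in RelA(TA2) than in RelA(wt) (21.3% and 20.9% of all genes), 7 higher in RelA(Ser276Ala) than in RelA(wt) (24.3%), and 7 lower in RelA(TA2) than in RelA(Ser276Ala) (24.6%). The list's median for RelA(Ser276Ala) against RelA(wt) was 0.23 in fragments and -0.01 in FPKM, and for RelA(TA2) against RelA(Ser276Ala) it was -0.30 in fragments and 0.04 in FPKM. The 3 lower in FPKM in RelA(TA2) than in RelA(Ser276Ala) were Ldha, lactate dehydrogenase A, at 253 FPKM in RelA(TA2) and 462 FPKM in RelA(Ser276Ala) (log2 -0.89, adjusted p = 8.63e-04), Bnip3, a mitophagy receptor, at 10.7 and 19.4 FPKM (log2 -0.83, adjusted p = 1.24e-05), and Pgk1, a glycolytic enzyme, at 212 and 338 FPKM (log2 -0.68, adjusted p = 6.71e-04), in the same order of lines and from limma. Hif1a itself differed between these lines by 0.09 (SE 0.06, adjusted p = 0.411).

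In the pathway that leads from type I interferon to STAT2, Ifnar1, a chain of the receptor, was at 14.9 FPKM in RelA(TA2) and 24.6 FPKM in RelA(wt) (log2 -0.69, SE 0.17, adjusted p = 0.0307 from limma), but in fragments the difference was -0.06 (adjusted p = 0.0818).

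Partners of the KIX domain and CREB co-activators changed in FPKM in 1 of 7 tested genes at 1 h and in none at 2 h (3.85% and 7.22% of all genes). That gene was Jun, a subunit of AP-1, at 193 FPKM at 1 h and 56.1 FPKM at 0 h (log2 1.76, SE 0.11, adjusted p = 2.23e-06 from limma). In fragments 2 of the 7 were higher at 1 h (6.11% of all genes), and at 2 h 1 was higher and 1 lower (12.3% and 26.6%). Of 11 other acetyltransferases and p160 co-activators, 7 were tested, none passed at 1 h in FPKM and 1 fell at 2 h (4.08% of all genes did). In all lists genes were matched by symbol, so an untested gene may be named otherwise in the merged assembly rather than low. In fragments 3 were higher at 1 h (6.11% of all genes) and 3 lower at 2 h (26.6%), and the list's median change at 1 h was 0.07 in fragments and -0.21 in FPKM. The 1 that fell in FPKM was Ncoa2, a p160 co-activator, at 5.91 FPKM at 2 h and 8.21 FPKM at 0 h (log2 -0.44, SE 0.06, adjusted p = 0.00104). Ncoa1, of the same family, was higher in RelA(TA2), with 6.27 FPKM, than in RelA(Ser276Ala), with 3.52 FPKM (log2 0.73, SE 0.15, adjusted p = 0.0115).

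For each tested member, the 3 genes with the most similar pattern were sought among 7514 others that reached 5 FPKM in all 18 libraries, by Pearson's r over the 9 condition means of log2(FPKM + 0.5). Nearest to Cited2 were Cyr61, a secreted matrix protein (r = 0.99), Phlda1 (r = 0.97) and Zfp36l1, an RNA-binding decay factor (r = 0.96). In fragments the same pairs gave 0.98, 0.98 and 0.96. Nearest to Hif1a were Sema3c (r = 0.95), Nop56 (r = 0.95) and Epb4.1l2 (r = 0.94), with 0.84, 0.80 and 0.87 in fragments. The best of Ep300 was 2310004I24Rik (r = 0.92), beside Fez1 and Sec16a (r = 0.89 each), with 0.76, 0.76 and 0.58 in fragments.

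For the other 2 members the same pairs gave lower coefficients in fragments. Crebbp was nearest to Ccdc50, Ddx19a and Rabepk (r = 0.93, 0.93 and 0.92), with 0.28, 0.31 and 0.50 in fragments. Stat2 was nearest to 4930404N11Rik, Atxn2 and Samd11 (r = 0.94, 0.93 and 0.92), with 0.48, -0.09 and -0.03 in fragments. These coefficients are over 9 points that come from the same 18 libraries, and describe a pattern only.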

How the data were processed

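The 18 libraries were read from the transcript assemblies the authors deposited, in which each assembled transcript carries its FPKM and confidence limits, already scaled for depth and length. Per the labels and the study's methods, poly(A) RNA libraries were made with TruSeq kits, bases were called with CASAVA 1.8.2, TopHat2 2.0.5 (with Bowtie2 2.0.0.7) placed the reads on mm10, and Cufflinks 2.0.2 assembled each library. Whether reads were counted by strand is not given in the sources used here, so antisense reads may be included.

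Each assembled transcript went to the gene of the merged assembly, on its own strand where known, with which it shared the most exonic bases, if these made up 50% of the transcript or of the gene's exons (Python 3.11.15). FPKM were summed per gene, and a gene without a transcript was given 0. Fragments were recovered from FPKM and its upper confidence limit for transcripts alone in their locus, and for the others from FPKM, length and the yield of transcripts of like length. They were expressed per M fragments in genes. Of recovered values below 500, 88.94% to 90.16% per library lay within 0.02 of a whole number, and 96.39% to 99.26% of fragments lay in genes. The files hold 0 columns of other samples.

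In limma 3.58.1 (R 4.3.3), log2(FPKM + 0.5) of 12220 genes, each with 1 FPKM or more in 2 or more libraries, was fitted with a mean for each of 9 conditions (9 residual degrees of freedom) and a trend of variance with level. Fold changes are on this scale, which understates changes of low genes. Tests were two-sided, with Benjamini-Hochberg adjustment across every gene fitted, and passed below 0.05. The fit was tested on simulated data. Fragments were tested likewise on log2(fragments per M + 0.5). Named were the members, Rela, of each list reported here up to 3 genes with the smallest adjusted p that passed over lines or times, and the 3 nearest patterns per member. The members and lists were chosen with earlier results of these data known. Alternatives were the amount added, the filter, the scaling, the handling of transcript pieces, the libraries fitted, the variance model, a replicate block and leaving out each library. The use of RefSeq exons only, and leaving libraries out of the fragment fit, were chosen after seeing the data. The counts over the STAT2 pathway and over its target genes are not reported here.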

Additional observations from a re-analysis of the deposited data

Results flagged for a closer look

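The change of Stat2 from 0 h to 2 h differed between RelA(TA2) and RelA(wt) cells when transcripts were weighted by length, by log2 -0.69 (SE 0.13, adjusted p = 0.0442 from limma), in a test of the difference itself. The same difference was -0.72 in recovered fragments (adjusted p = 0.0584, and 0.0204 to 0.187 with a library left out) and -0.71 in summed FPKM (adjusted p = 0.821).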

How the results depend on the processing

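Cited2 kept its calls at 1 h and 2 h over the lines and in each mutant line over the times under every alternative and with any library left out. The counts of passing members moved mainly with how transcript pieces were handled. At 1 h against 0 h, 1 member passed, and 2 did with the highest transcript only, with the length-weighted level and in fragments (1 to 2 with a library left out, 2 without RelA(Ser276Ala) 0 h replicate 2, where Stat2 was added). At 2 h it was 1, and 3 with the length-weighted level and in fragments. For RelA(Ser276Ala) against RelA(wt) it was 1, and 2 by length-weighted level and 3 in fragments. For RelA(TA2) against RelA(Ser276Ala) it was 0, and 2 on both (0 to 1 with a library left out, 1, Stat2, without RelA(Ser276Ala) 0 h replicate 2). Calls within lines were 5, 11 on both, and 3 with only the compared groups fitted. Calls at single times were 3, and 5 by length-weighted level, 8 in fragments, 1 after quantile normalization, 0 with only the compared groups (1 to 3 with a library left out, 1 without either RelA(wt) 2 h library). Of the differences in change, 0 passed, and 1 did by length-weighted level. Signs of differences that did not pass in FPKM turned as follows, in log2. At 1 h over the lines, Crebbp was 0.0035 length-weighted and 0.012 in fragments, and Ep300 0.012 after median-of-ratios scaling, 0.0022 after quantile normalization and 0.051 in RefSeq exons (-0.23 to 0.19 with a library left out). At 2 h, Ep300 was -0.035 with the highest transcript, -0.11 length-weighted and -0.099 in fragments (-0.032 to 0.10), Hif1a was -0.0098 with the highest transcript, and Crebbp lay at -0.36 to 0.017 with a library left out. For RelA(TA2) against RelA(wt), Crebbp was 0.12, 0.073, 0.067 and 0.012 (highest transcript, length-weighted, fragments, RefSeq exons), Ep300 was 0.022 with the highest transcript and 0.12 in RefSeq exons (-0.26 to 0.16), and Stat2 was 0.19 with the highest transcript. For RelA(Ser276Ala) against RelA(wt), Stat2 was -0.019, -0.35 and -0.43 (highest transcript, length-weighted, fragments), and Crebbp lay at -0.26 to 0.11 and Hif1a at -0.030 to 0.029 with a library left out. For RelA(TA2) against RelA(Ser276Ala), Crebbp was 0.15, 0.13, 0.16 and 0.12 (highest transcript, length-weighted, fragments, RefSeq exons, and -0.27 to 0.11 with a library left out), Stat2 was 0.21, 0.24 and 0.32, Cited2 was 0.010 length-weighted and 0.022 in fragments, and Ep300 lay at -0.12 to 0.30. Cited2 at 1 h against RelA(wt) was -0.084 and -0.072 in RelA(TA2) (length-weighted and in fragments, -0.062 to 0.078 with a library left out) and -0.032 and -0.066 in RelA(Ser276Ala), and its difference in the change to 2 h in RelA(TA2) was -0.013 after quantile normalization. Stat2 in fragments with a library left out lay at -0.080 to 0.075 for 2 h in RelA(wt), at -0.046 to 0.14 for RelA(TA2) at 1 h, and at -0.18 to 0.040 for the change to 1 h in RelA(Ser276Ala). With the replicate number as a replicate block the counts over lines and times were 1, 1, 1, 1 and 0, and within lines 4, the call of Cited2 in RelA(TA2) at 2 h being lost (adjusted p = 0.0512). Same-numbered libraries did not deviate together in FPKM (36 correlations between -0.08 and 0.11, 1 of them over 0.1). This was not checked in fragments, and spread from transcript pieces in FPKM could hide a shared deviation. Whether the numbers pair the samples is therefore not settled, and they were not used as pairs. With 2 libraries per condition and an SE of 0.19 to 0.22 over lines or times, differences of Crebbp, Ep300 and Stat2 of several SE in FPKM could be missed. The Stat2 change of log2 -0.78 at 1 h over the lines, for example, did not pass (adjusted p = 0.107 from limma). The cause of each change with the processing was not tested.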
